A study of Mus musculus with 6 samples.

Results

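The genes described here encode the colony-stimulating factors and their receptors: the CSF1 receptor gene Csf1r with its ligand genes Csf1 and Il34, the GM-CSF system of Csf2ra, Csf2rb, Csf2rb2 and the ligand gene Csf2, and the G-CSF system of Csf3r and the ligand gene Csf3. They were taken by symbol, and all 9 were among the 41079 genes of the count and FPKM tables. Of these, 6 had enough counts to be tested, beside 14618 tested genes in all. RNA-seq was run on primary microglia of C57Bl/6N mice, 3 libraries from control cultures and 3 from cultures under optimized conditions. No transgene, deletion or other genetic change is named for either group.

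The cells of both groups came from brains of neonates aged 1 to 3 days and were shaken off mixed glial cultures. Those cultures were given 20% conditioned medium of L-929 cells, a fibroblast line used as a source of M-CSF (the protein encoded by Csf1), on days 8, 13, 21 and 29, so control and optimized cells had both met a CSF1R ligand before the comparison. Microglia were harvested repeatedly, between and after the later doses. The harvest behind each library is not given in the sources used here, so how many doses its cells met is not known. Control cells were then kept in serum-free DMEM/F12. For the optimized group the labels name 100 ng/mL human TGF-β, 100 ng/mL human IL-34 and 100 ng/mL CX3CL1, and the study's methods add cholesterol, an insulin-transferrin-selenium solution and a collagen IV coating. IL-34 was therefore present as an added human protein, whereas the Il34 counts are those of the mouse gene, and the effect of 1 agent cannot be told apart from that of the others. The study calls the libraries biological replicates but the labels do not tie them to separate litters or flasks, so the p-values measure the spread between these samples.

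CSF1R is a receptor tyrosine kinase on the surface of microglia and other macrophages, and signalling through it keeps microglia alive in the brain. Its ligands CSF1 and IL-34 bind the same receptor, which is internalised and degraded after binding. GM-CSF and G-CSF act through receptors of another type that have no kinase of their own and use JAK2: the GM-CSF receptor pairs a ligand-specific alpha chain (Csf2ra) with the beta chain shared with the IL-3 and IL-5 receptors (Csf2rb), and mice carry a further beta chain gene, Csf2rb2, that serves IL-3 alone. The G-CSF receptor (Csf3r) is best known from neutrophils.

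Csf2rb and Csf2rb2 are near-copies of each other, and since short reads decide between them, the sequences that join and separate them are given first. In GENCODE M39 on GRCm39, Csf2rb lies at chr15:78209952-78238047 on the plus strand and Csf2rb2 at chr15:78166707-78189921 on the minus strand. Each canonical transcript has 14 exons, the coding sequences have 2688 and 2634 bases, and 95.2% of 2628 aligned coding positions were identical. Within the coding sequence of each gene lies an annotated microRNA hairpin of 62 bases, and the RefSeq sequences of the hairpins are the same in both genes (Mir7676-2 in Csf2rb at chr15:78232799-78232860, plus strand, and Mir7676-1 in Csf2rb2 at chr15:78168988-78169049, minus strand).
Hairpin sequence in both genes: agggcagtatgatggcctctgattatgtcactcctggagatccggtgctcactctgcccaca
The ungapped coding stretch of 60 bases that differs most between the genes within 1 exon has 13 differences, which are the capitals in the lines below (chr15:78223093-78223152, plus strand, and chr15:78178579-78178638, minus strand).
Csf2rb: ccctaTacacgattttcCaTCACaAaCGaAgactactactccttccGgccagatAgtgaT
Csf2rb2: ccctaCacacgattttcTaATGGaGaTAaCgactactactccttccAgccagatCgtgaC
Of all windows of 50 bases along the Csf2rb transcript, 18.9% were found unchanged in the Csf2rb2 transcript, and of windows of 150 bases 3.58% were. How the authors' counting placed reads that map to both genes is not given in the sources used here, so the values of the pair are uncertain to that extent.

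The libraries held 20628148 to 27261839 counts. Levels are given as CPM, counts brought to a common library size with edgeR's TMM factors. The groups were compared by the quasi-likelihood test of edgeR. Its p-values were adjusted by Benjamini and Hochberg's method across every tested gene, and an adjusted p below 0.05 is named a change. The choice of scaling matters for small changes here. When counts were scaled by library size and nothing else, the median log2 fold change of all genes moved from 0.01 to -0.12, and the share of called genes that were higher from 49.1% to 32.3%. The deposited FPKM values were scaled by library constants close to the total counts, so results from them share nearly the same scaling. Because RNA was taken from whole cultures, fewer cells of a type and less RNA per cell cannot be told apart. The 6 microglial markers Tmem119, P2ry12, Cx3cr1, Aif1, Itgam and Sall1 were all above 1 CPM and summed to between 1262 and 1342 CPM in control and between 3019 and 3086 CPM in optimized libraries.

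Of the 6 tested genes, Csf1 was higher and Csf1r was lower in optimized cells, and Csf2ra, Csf2rb, Csf2rb2 and Csf3r did not pass the test. These 2 calls stand beside 29.8% of all tested genes called, 14.7% higher and 15.2% lower, so the share of members called was close to that of the genes at large. The libraries of the groups did not overlap for 3 of the 6 (Csf1r, Csf1 and Csf2rb), against 43.9% of all tested genes. The counts of Il34, Csf2 and Csf3 stayed in single digits in every library and were too low to test.

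**Figure D1:**
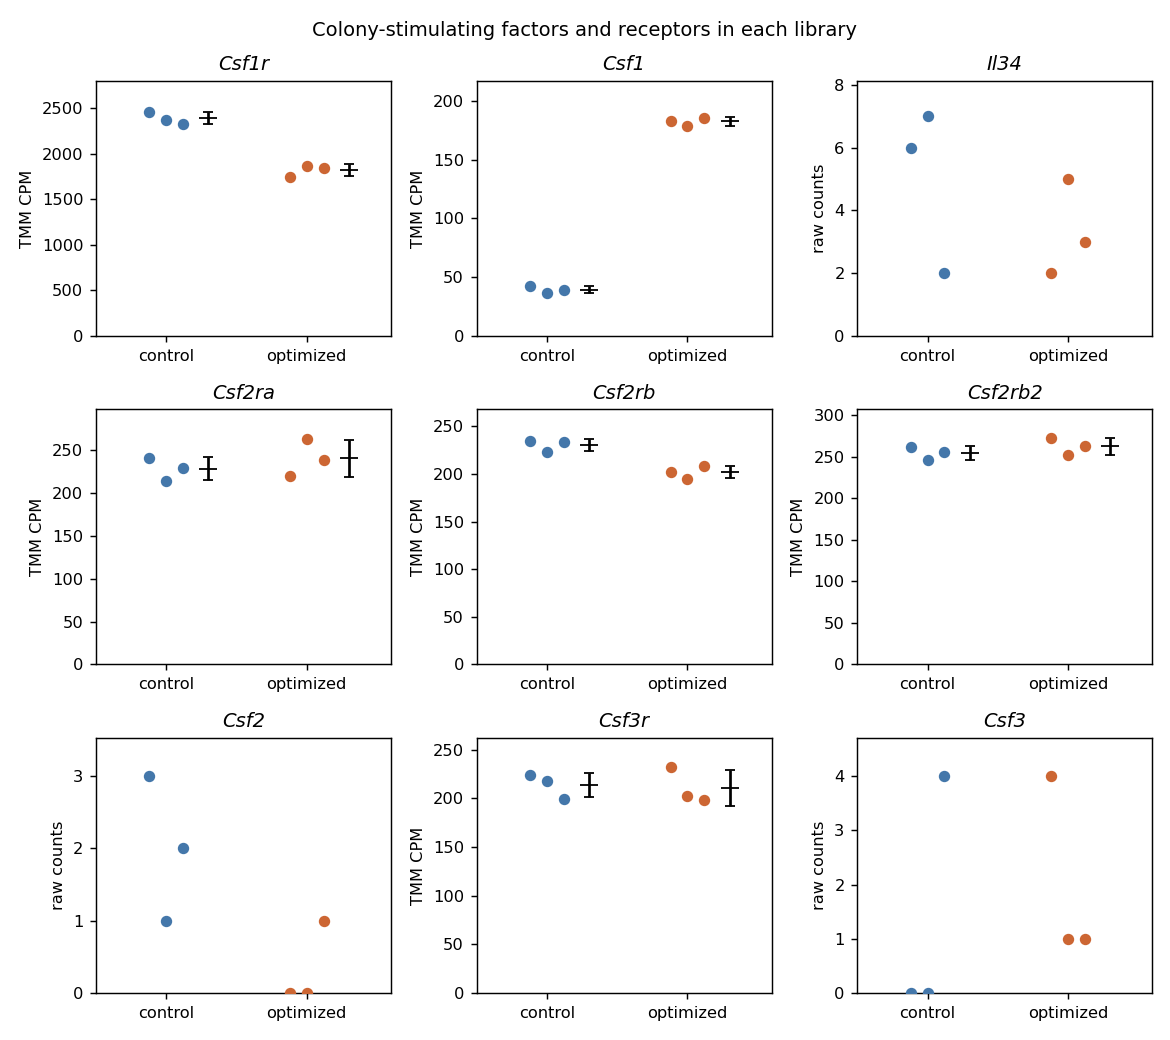
Level of each gene in the 3 control (blue) and 3 optimized (orange) libraries, as TMM CPM for the 6 tested genes, with the group mean and SD in black, and as raw counts for the 3 ligand genes that were not tested; every axis starts at 0. The optimized libraries lie between 178 and 186 CPM for Csf1, above 36.5 to 42.1 CPM in control, and below every control library for Csf1r.

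Csf1r, the receptor for CSF1 and IL-34, had the highest FPKM of the 9 genes in every library and fell in optimized cells. The control libraries had 2461, 2372 and 2329 CPM of it, against 1741, 1866 and 1844 CPM under optimized conditions. Every optimized library was below every control library, and the spread within each group was small beside the distance between them. The means were 2387 ± 67.2 CPM (SD, n = 3) in control and 1817 ± 66.9 CPM (SD, n = 3) in optimized cells, which is -0.39 on the log2 scale (SE 0.096, adjusted p 0.0111 by edgeR's quasi-likelihood test). The call depended on which library was left out. Without control replicate 1 it was lost (log2 fold change -0.38, adjusted p 0.0523 by the same test). Without control replicate 2 or optimized replicate 3 it barely held (-0.40 in both, adjusted p 0.0496 and 0.0469). It held more clearly without control replicate 3 (adjusted p 0.0280), optimized replicate 2 (0.0151) or optimized replicate 1 (0.00547). Csf1r took 0.233% to 0.263% of all counts in control and 0.167% to 0.178% in optimized libraries. The gene spans chr18:61229714-61266535 on the plus strand (GENCODE M39, GRCm39). Its exons share 1461 bases with Hmgxb3 on the other strand, which had 725 to 948 counts per library against 36765 to 63615 for Csf1r, and Hmgxb3 itself differed by -0.03 on the log2 scale (adjusted p 0.859, edgeR).

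The fall of Csf1r went with a higher sum of the microglial markers, and the part of that shift in the Csf1r result was not tested. Among those markers Aif1 ranged from 151 to 180 CPM in control and from 95.5 to 142 CPM in optimized libraries, below control as Csf1r was, whereas Tmem119, P2ry12, Cx3cr1, Itgam and Sall1 were above control in every optimized library.

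Csf1, the gene of M-CSF, was the member that changed most. Control libraries held 42.1, 36.5 and 39.4 CPM of it, and optimized libraries held 183, 178 and 186 CPM. The lowest optimized library was thus several times above the highest control library. The means were 39.3 ± 2.80 CPM (SD, n = 3) and 182 ± 3.67 CPM (SD, n = 3), a level 4.64-fold higher, or 2.21 on the log2 scale (SE 0.087, adjusted p 1.3e-07 by edgeR's quasi-likelihood test). The lowest log2 fold change under any alternative was 1.95 and the highest 2.26. Csf1 lies at chr3:107648364-107667806 on the minus strand (GRCm39). Its raw counts were 895 to 1076 in control and 3840 to 4192 in optimized libraries.

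Fibroblasts and astrocytes are known sources of CSF1, so their markers are given beside this rise. The 6 fibroblast markers summed to 34.5, 41.6 and 48.8 CPM in control and to 48.5, 31.0 and 151 CPM in optimized replicates 1 to 3, where the Csf1 level was 183, 178 and 186 CPM. Of the 7 astrocyte markers, 6 were in the table, and their sum was 29.9 to 31.5 CPM in control and 15.2 to 18.6 CPM in optimized libraries. Most of that difference was Aldh1l1 (15.1 to 18.05 and 4.39 to 4.83 CPM). Slc1a3 (5.09 to 6.30 and 3.03 to 4.89 CPM) and Slc1a2 (0.897 to 1.27 and 0.677 to 0.766 CPM) were also lower without overlap. The groups overlapped for Gfap (3.45 to 5.02 and 3.98 to 5.18 CPM), Aqp4 and S100b. The 6 oligodendrocyte markers summed to 135 to 151 CPM in control and 164 to 202 CPM in optimized libraries, the 4 endothelial markers to 4.11 to 4.81 and 4.77 to 6.29 CPM, and the 6 neuronal markers to 3.07 to 4.72 and 5.30 to 6.34 CPM. The part of any of these cell types in the Csf1 result was not tested.

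Il34, the gene of the other CSF1R ligand, was hardly detected. Control replicates 1 to 3 had 6, 7 and 2 counts of it, optimized replicates 1 to 3 had 2, 5 and 3, and the groups overlapped. A count of 3, the most that a library with none could hide, stands for 0.110 to 0.145 CPM in these libraries, and no fold is given for so few counts. These floors and intervals cover counting error only. The Il34 gene (chr8:111423928-111532584, minus strand) shares 100 exon bases with Vac14 on the other strand, which had 1593 to 2774 counts per library, and without a stated strand setting a few reads of either gene cannot be assigned.

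Of the other receptors for IL-34, Sdc1 (a proteoglycan, syndecan-1) went from 4.64 ± 0.10 to 3.29 ± 0.10 CPM (SD, n = 3 per group), a change of -0.50 on the log2 scale (SE 0.16, adjusted p 0.0430 by edgeR) that was no longer called with DESeq2, without the filter on low counts, with the replicate block, or whichever library was left out. Ptprz1, a receptor phosphatase, differed by -0.14 (SE 0.30, adjusted p 0.770).

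Csf2ra, the alpha chain that gives the GM-CSF receptor its specificity, was at 242, 215 and 229 CPM in the controls, and at 220, 263 and 239 CPM after optimization. The groups overlapped, with the lowest and the highest optimized library on either side of the control mean. The means of 228 ± 13.5 and 241 ± 21.6 CPM (SD, n = 3 per group) differed by 0.08 on the log2 scale (SE 0.094, adjusted p 0.604, edgeR). The sign depended on the scaling and was negative with library size alone (-0.06) and with FPKM values. Csf2ra lies at chr19:61212395-61216892 on the minus strand.

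Csf2rb, the shared beta chain, was lower in optimized cells by a margin that did not pass the test. Controls had 235, 223 and 233 CPM and optimized cells 202, 195 and 208 CPM, so that no optimized library reached the lowest control library. The means of 231 ± 6.27 and 202 ± 6.43 CPM (SD, n = 3 per group) differed by -0.19 on the log2 scale (SE 0.078, unadjusted p 0.0328, adjusted p 0.0921 by edgeR's quasi-likelihood test). With library size alone the difference was -0.32 and its adjusted p 0.0232, past the threshold.

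Csf2rb2, the beta chain for IL-3, was at 262, 246 and 256 CPM in the controls and at 272, 252 and 263 CPM after optimization, and these ranges overlapped. The difference was 0.05 on the log2 scale (SE 0.079, adjusted p 0.728, edgeR), and it turned to -0.08 with library size alone. With the counts of both beta chain genes added, a read placed at the wrong gene no longer matters, but reads dropped or counted at both still do. The summed level was 485 ± 14.3 CPM in control and 464 ± 15.02 CPM in optimized cells (SD, n = 3), a difference of -0.06 on the log2 scale (adjusted p 0.624, edgeR).

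The hairpin intervals printed above lie inside the coding sequences of the pair, so counts on them are not separate evidence. The RNA-seq reads counted on them are reads over 62 bases of the host genes' coding exons and say nothing of the mature microRNA. The interval inside Csf2rb (Mir7676-2) drew 561, 570 and 624 reads from the controls and 354, 453 and 431 from optimized cells, which after scaling is -0.31 on the log2 scale (SE 0.11, adjusted p 0.0547, edgeR). The identical interval inside Csf2rb2 (Mir7676-1) drew 580, 619 and 633 reads from the controls and 536, 550 and 545 from optimized cells, or 0.03 on the log2 scale (adjusted p 0.870). Neither passed the test. Whether these reads were also counted for the host genes is not given in the sources used here. Because both intervals have the same sequence, a read within them alone cannot be assigned to either gene.

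Csf2, the gene of GM-CSF (chr11:54138097-54140493, minus strand), was counted 3, 1 and 2 times in the controls and 0, 0 and 1 times after optimization. All values were at or below 3 counts, too few to compare the groups, and no fold is given. Of the partners of the beta chains, Il3ra, the IL-3 receptor alpha chain, differed by 0.24 on the log2 scale (SE 0.14, adjusted p 0.250, edgeR). Il5ra, the IL-5 receptor alpha chain, had 6 counts in control replicate 2 and 0 elsewhere, Il5 had 7 counts in that library and 0 elsewhere, and Il3 had 0 in every library.

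Csf3r, the G-CSF receptor, was at 224, 218 and 199 CPM in the controls and at 232, 202 and 198 CPM after optimization. The optimized group held both the highest and the lowest value. The means of 214 ± 12.6 and 211 ± 18.4 CPM (SD, n = 3 per group) differed by -0.02 on the log2 scale (SE 0.093, adjusted p 0.908, edgeR). The gene lies at chr4:125918262-125938236 on the plus strand, and the overlapping Gm32908 on the other strand had 58 to 158 counts against 4100 to 5449 for Csf3r. Csf3, the gene of G-CSF (chr11:98592089-98594458, plus strand), was counted 0, 0 and 4 times in the controls and 4, 1 and 1 times after optimization, and is given no fold.

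Since Csf3r is best known from neutrophils, their markers were summed. Of 9 neutrophil markers, 5 (S100a9, Ly6g, Mpo, Elane and Ngp) had no count in any library, and the list summed to 0.286 to 0.437 CPM in control and 1.64 to 3.28 CPM in optimized libraries, most of it S100a8 (30, 72 and 30 counts in the optimized libraries). The 4 monocyte markers summed to 0.6995 to 1.32 CPM in control and to 4.17, 0.596 and 0.532 CPM in optimized replicates 1 to 3. Most of the value in optimized replicate 1 was Plac8, with 54 counts there and 0 in optimized replicates 2 and 3. Dendritic cell markers, 6 in all, summed to 8.35 to 8.92 CPM in control and 5.80 to 7.11 CPM in optimized libraries, with Flt3, Ccr7 and Cd209a at 0 throughout. Most of that sum was Zbtb46, which was lower without overlap (7.80 to 8.40 and 4.26 to 5.02 CPM). Siglech was higher without overlap (0.293 to 0.568 and 0.900 to 1.62 CPM), and the groups overlapped for Xcr1. Of 7 lymphocyte markers Cd3e and Cd8a were at 0, and Cd4, at 19.5 to 20.8 CPM in control and 7.43 to 9.71 CPM in optimized libraries, made up nearly the whole sum.

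**Figure D2:**
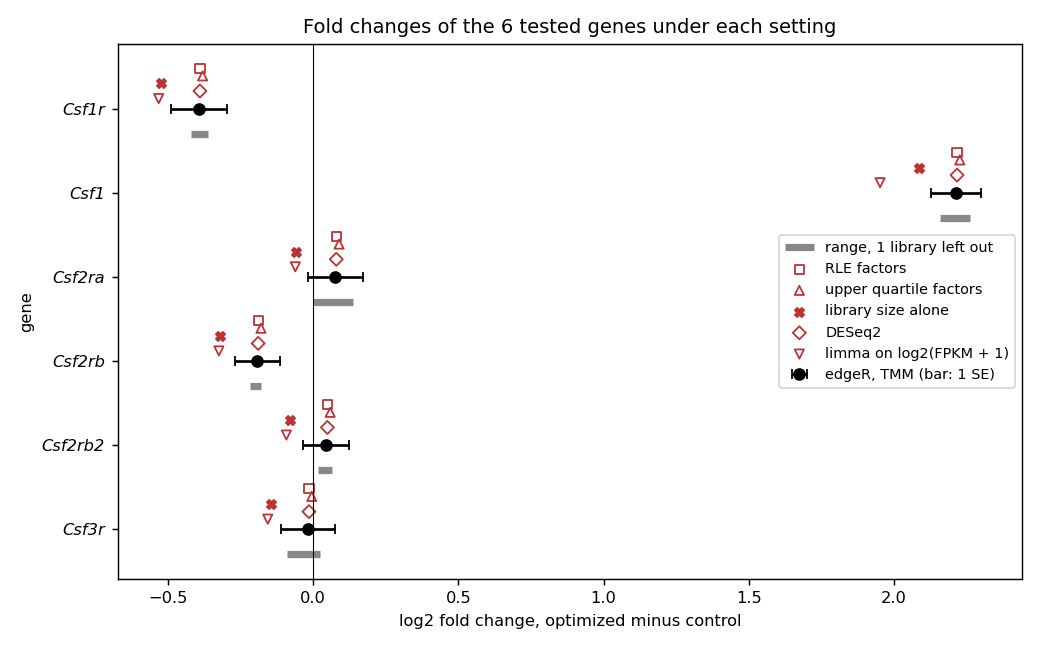
Log2 fold change (optimized minus control) of the 6 tested genes on the horizontal axis, with edgeR's TMM value and 1 SE in black, other scalings and tools in red, and the range over fits with 1 library left out in grey. Library size alone and FPKM values put every gene further to the left, and Csf2ra and Csf2rb2 cross 0.

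Levels of different genes were compared per length, with the deposited FPKM values. In control libraries Csf1r was at 626 ± 37.3 FPKM (SD, n = 3), between rank 70 and 86 of all genes, followed by Csf2rb2 at 54.6 ± 2.35, Csf3r at 51.2 ± 4.77, Csf2rb at 48.1 ± 1.70, Csf2ra at 16.8 ± 1.13 and Csf1 at 8.28 ± 0.65 FPKM. The ranges of Csf2rb2 and Csf3r overlapped, as did those of Csf3r and Csf2rb, and the other neighbours did not. In optimized libraries the order changed at its lower end. Csf1r was at 432 ± 11.4 FPKM (rank 86 to 111), Csf2rb2 at 51.2 ± 4.09, Csf3r at 45.9 ± 5.45, Csf2rb at 38.2 ± 2.62, Csf1 at 34.9 ± 2.06 and Csf2ra at 16.0 ± 0.78 FPKM. Here Csf1 stood above Csf2ra, and its range (32.5 to 36.1 FPKM) overlapped that of Csf2rb (35.2 to 39.9 FPKM). In rank, Csf1 stood between 5372 and 5877 in control and between 1350 and 1573 in optimized libraries.

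The place of Csf2ra in this order depends on the gene model. Its FPKM values correspond to a length of 21510 bases, 7.36 times the 2924 exon bases of GENCODE M39, whereas for the other 5 tested genes the same quotient was between 0.817 and 1.55. Per kilobase of GENCODE exon, Csf2ra was at 78.1 ± 4.62 CPM in the controls and 82.4 ± 7.39 CPM after optimization (SD, n = 3). That would put it next after Csf1r (324 ± 9.13 and 247 ± 9.09 CPM per kilobase) and above Csf2rb2 (53.7 ± 1.72 and 55.4 ± 2.16). The counts were made with the authors' annotation, however, and those of Csf2ra may include reads outside the GENCODE exons. Its rank among these genes is therefore not settled. In optimized cells Csf1 (31.0 ± 0.62 CPM per kilobase) then stood above Csf2rb (27.7 ± 0.88), the reverse of their FPKM order. The fold change of a gene between groups does not depend on its length.

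**Figure D3:**
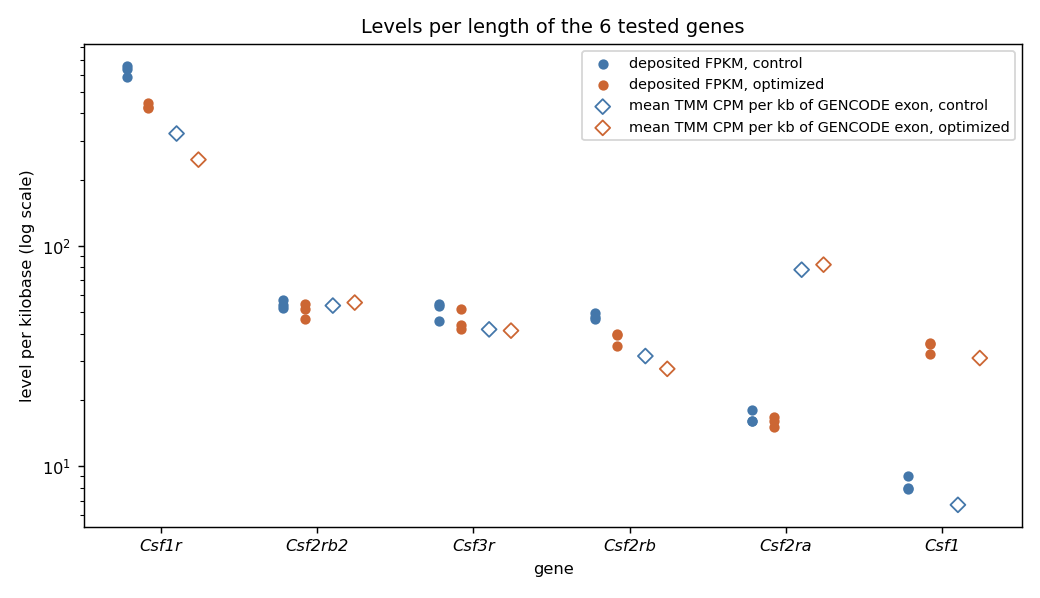
Level per kilobase (log axis) of the 6 tested genes, as deposited FPKM per library (filled circles) and as mean TMM CPM per kilobase of GENCODE exon (open diamonds), control in blue and optimized in orange. Csf1r stands above all others on both scales, Csf1 is the gene whose groups are far apart, and the places of Csf2ra, and of Csf1 and Csf2rb in optimized cells, change with the length used.

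Ratios of counts within a library need no scaling between libraries, and they were used to compare the members with each other across groups. The ratio of Csf1 to Csf1r counts was 0.0171, 0.0154 and 0.0169 in control and 0.105, 0.0956 and 0.101 in optimized libraries, a 6.10-fold difference between groups that did not overlap. The ratios of the other receptors to Csf1r were higher as well, 1.38-fold higher for Csf2ra, 1.15-fold for Csf2rb and 1.30-fold for Csf3r. These share Csf1r as denominator, which was lower in optimized cells, whereas Csf2ra, Csf2rb and Csf3r themselves were not called. The ratios are thus not separate results. Within the GM-CSF receptor, the ratio of Csf2rb to Csf2ra was 1.01 ± 0.035 in control and 0.843 ± 0.092 in optimized libraries (SD, n = 3). The ratio of Csf2rb2 to Csf2rb was 1.11, 1.10 and 1.10 in control and 1.35, 1.29 and 1.27 in optimized libraries, 1.18-fold higher. In all 6 ratios the groups did not overlap, for which the exact permutation test (two-sided) gave p = 0.1, adjusted p = 0.1 over the 6 ratios, the smallest value that 3 against 3 libraries allow. A p under 0.05 could not be reached in this design.

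**Figure D4:**
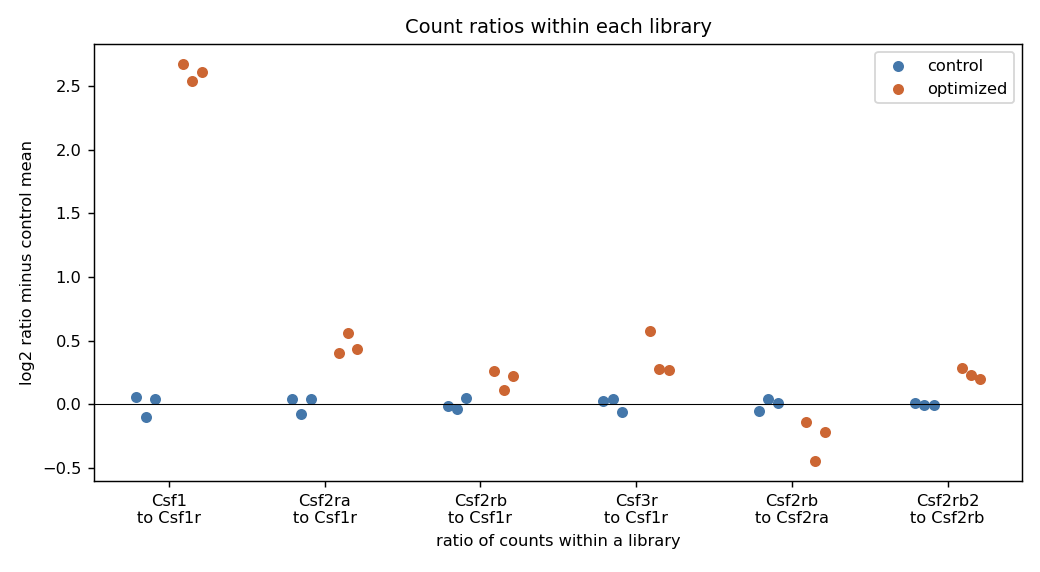
Log2 ratio of counts of the named genes within each library, with the mean of the control libraries subtracted, for 3 control (blue) and 3 optimized (orange) libraries. Optimized libraries lie above control in every ratio but Csf2rb to Csf2ra, where they lie below.

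The genes around the receptors were read from 9 lists of 91 genes, of which 81 were tested. In all, 18 of these were higher and 30 lower, with a median log2 fold change of -0.16, beside 2142 higher and 2218 lower of 14618 genes and a median of 0.01. With library size alone the lists had 13 higher and 35 lower genes. Of the 48 calls, 34 were lost under no alternative in which the gene was tested, and no called gene turned its direction under any of them. In the following, levels are mean CPM with the SD of 3 libraries, and adjusted p-values are from edgeR's quasi-likelihood test.

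Genes of signalling next to CSF1R split in direction, with 4 higher, 6 lower and 9 that did not pass of 19 tested (median log2 fold change 0.01). The Src-family kinases did not move together. Src fell from 34.02 ± 1.56 to 10.8 ± 0.57 CPM (log2 fold change -1.66, adjusted p 1.4e-06), whereas Fgr rose from 2.05 ± 0.34 to 5.60 ± 0.28 CPM (log2 1.45, adjusted p 2.7e-04) and Yes1 by 0.58 on the log2 scale. Syk, the kinase that binds phosphorylated adaptors, fell by 0.82, and Pik3cd, a catalytic subunit of PI3-kinase, by 0.77. Plcg2, a phospholipase that the receptor engages, rose by 0.75, from 149 ± 9.65 to 250.3 ± 2.62 CPM, and the adaptor Shc1 rose by 0.31. The calls of Yes1 and Shc1 were lost with library size alone, with FPKM values, and without control replicate 1 or 3. Pik3cd shares 1244 exon bases with Clstn1 on the other strand.

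Among genes that end or restrain CSF1R signalling, 4 rose and 5 fell of 12 tested (median log2 fold change -0.30). The adaptors of the Dok family diverged: Dok2 fell from 78.4 ± 6.29 to 12.3 ± 2.20 CPM (log2 fold change -2.67, adjusted p 5.2e-07) and Dok1 by 0.77 on the log2 scale, while Dok3 rose by 0.62. Inpp5d, the lipid phosphatase SHIP1, rose from 258 ± 12.2 to 504 ± 28.4 CPM (log2 0.97, adjusted p 2.3e-05). The phosphatase Ptpn6 (SHP-1) fell by 0.48, and the ubiquitin ligase Cblb fell by 0.67. Sla, an adaptor that promotes receptor degradation, rose by 0.59, and Rhbdf2, a partner of the sheddase ADAM17, by 0.44. Adam17 itself (log2 -0.17, adjusted p 0.132) and Cbl, which ubiquitinates CSF1R (log2 -0.16, adjusted p 0.552), did not pass. Sla2 had no count in any library.

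Of 11 transcription factors that act on Csf1r, 2 rose and 4 fell (median log2 fold change -0.24). Spi1, which encodes PU.1, the factor that myeloid cells need for Csf1r transcription, fell from 341 ± 25.9 to 231 ± 47.5 CPM (log2 fold change -0.56, adjusted p 0.0144). Ets2 fell by 1.82, Tfec by 1.43 and Mitf by 0.47. Cebpa rose from 119 ± 5.67 to 374 ± 71.0 CPM (log2 1.65, adjusted p 1.1e-05), and Irf8 rose by 0.55. Runx1 (log2 0.24, adjusted p 0.125) did not pass. The fall of Spi1 was not called without control replicate 3, and that of Mitf was lost in 3 of the 6 fits with a library left out (each of control replicates 1 and 2, and optimized replicate 3).

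In the JAK2-STAT5 arm that GM-CSF and G-CSF receptors share, 2 of 10 genes rose and 2 fell (median log2 fold change 0.15). Socs2, a feedback inhibitor of STAT5 signalling, rose from 2.07 ± 0.31 to 7.56 ± 0.97 CPM (log2 fold change 1.87, adjusted p 4.5e-05). Stat3 rose by 0.31, and Ptpn11 (SHP-2) and Jak1 fell by 0.30 and 0.26. These 3 calls were unstable: that of Stat3 was lost with library size alone, with FPKM values and in 4 of the 6 fits with a library left out, and those of Ptpn11 and Jak1 were each lost in 5 of the 6, all but the fit without optimized replicate 1. Jak2 (log2 0.19, adjusted p 0.220), Stat5a (-0.35, adjusted p 0.188) and Stat5b (-0.16, adjusted p 0.199) did not pass, nor did Cish (0.48, adjusted p 0.335), another STAT5 feedback gene. Stat5a and Stat3 share 142 exon bases.

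Of 13 genes that GM-CSF induces in myeloid cells, 9 were tested, none rose and 5 fell (median log2 fold change -0.75), beside 15.2% of all tested genes lower. The rest of the tested genes did not pass and went both ways. Cish (log2 0.48, adjusted p 0.335) and Cd86 (0.22, adjusted p 0.135) were positive, and Irf4 (-1.46, adjusted p 0.0546) and Ccl24 (-0.36, adjusted p 0.549) negative. Pparg, a lipid-sensing nuclear receptor that GM-CSF maintains in lung macrophages, fell from 12.3 ± 0.75 to 1.30 ± 0.33 CPM (log2 fold change -3.22, adjusted p 1.3e-06). Fabp4, a fatty acid binding protein and PPARγ target, fell from 89.5 ± 13.4 to 17.6 ± 4.49 CPM (log2 -2.35), Pim1, a survival kinase, by 1.20 and Batf3, a dendritic cell factor, by 0.75. Itgax, which encodes CD11c, was the fifth, with a log2 fold change of -0.59. Ccl17 and Car4 had no count, Ccl22 had 10 to 22 counts in control and 2 to 4 in optimized libraries, and Dpp4 had 22, 0 and 1 counts in optimized libraries and 0 in control. Pim1 shares 488 exon bases with Gm26885 on the other strand.

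Genes of the growth response to M-CSF also split, with 4 higher and 6 lower of 11 (median log2 fold change -0.39). Ccnd1, the cyclin that M-CSF induces in G1, fell from 261 ± 18.1 to 126 ± 5.48 CPM (log2 fold change -1.05, adjusted p 1.3e-05), and Myc fell by 0.60 and Fos by 0.97. Mcl1, a survival protein of the BCL2 family, fell from 626 ± 27.7 to 290.4 ± 7.29 CPM (log2 -1.11). Ets1 rose from 10.4 ± 1.94 to 42.8 ± 1.56 CPM (log2 2.05, adjusted p 2.5e-06), and Junb, Egr1 and Fosl2 rose by 0.53, 0.51 and 0.40. The call of Fosl2 was lost with library size alone, with FPKM values and in 3 of the 6 fits with a library left out (control replicates 2 and 3, and optimized replicate 3), and that of Junb was lost without control replicate 2. Ccnd1 shares 2315 exon bases with LTO1, and Junb 173 with Prdx2, on the other strand.

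CSF1R belongs to the class III receptor tyrosine kinases. Of 9 related receptors and ligands 7 were tested. The ligand genes Pdgfa and Pdgfb rose, Pdgfa from 27.5 ± 0.79 to 79.3 ± 1.87 CPM (log2 fold change 1.53, adjusted p 7.1e-07) and Pdgfb by 0.36 on the log2 scale, the latter call being lost with library size alone, with FPKM values and without control replicate 3. Kitl, the ligand of KIT, fell from 42.6 ± 1.68 to 15.7 ± 1.70 CPM (log2 -1.44, adjusted p 5.5e-06). Of the receptors, Pdgfra (log2 0.20, adjusted p 0.598) and Pdgfrb (0.36, adjusted p 0.703) did not pass, Kit had 1 to 10 counts per library and Flt3 none. Pdgfa shares 2552 exon bases with a transcript on the other strand.

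**Figure D5:**
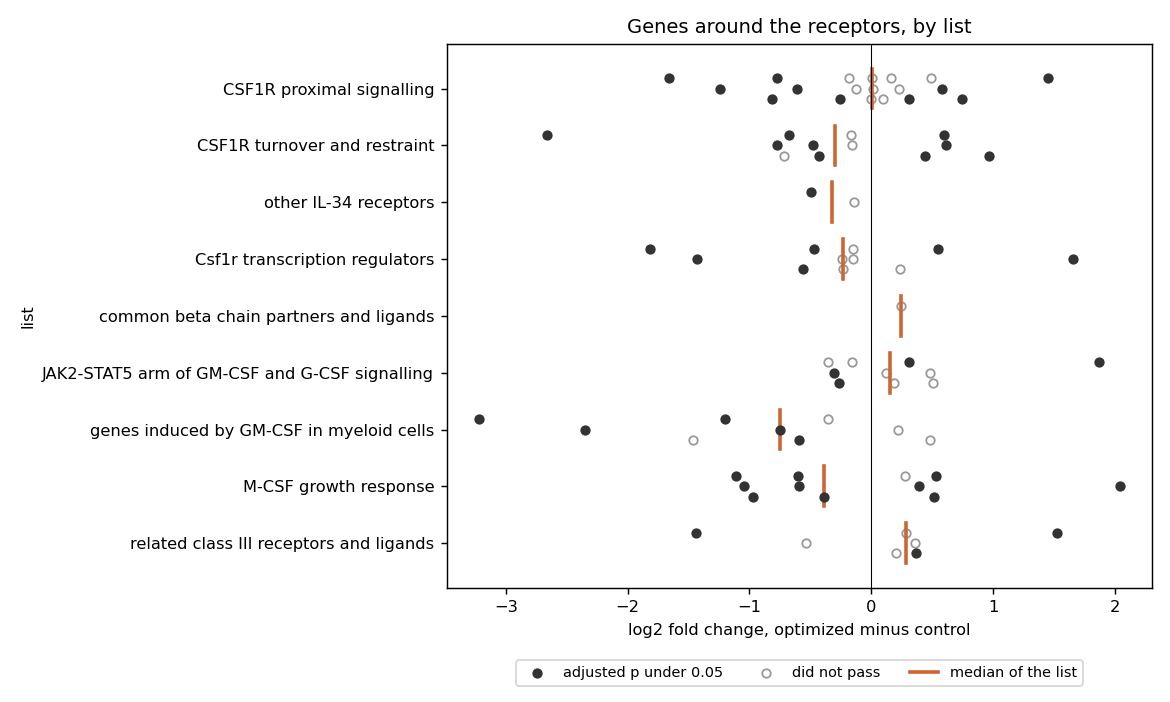
Log2 fold change (optimized minus control) of each tested gene in the 9 lists, filled where the adjusted p was under 0.05, with the median of each list as an orange bar. Calls lie on both sides of 0 in most lists, and for the genes induced by GM-CSF the 5 calls of 9 tested genes are all lower.

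The genes whose pattern over the 6 libraries was most like that of each member were found by Pearson's r of log2 CPM among 9791 tested genes with a mean of at least 5 CPM. Since the 6 values are 3 from each group, a high r mainly reflects a difference between the groups. Csf1r was closest to Set (r = 0.998), Srf and Atp13a2 (0.998 and 0.997), with 800 genes above 0.95, and Csf1 to Mtus1 (r = 1.00), Ptk7 and Ski (0.999 each), with 801. Csf2rb was closest to Rccd1 (0.993), Txnrd1 and Ddx21 (0.992 each), with 281 genes above 0.95. Far fewer were that close to the genes whose groups overlapped, 9 for Csf2ra, 20 for Csf2rb2 and 50 for Csf3r. Csf2ra was closest to Slc2a8 (0.976), Taf1c (0.972) and Rusf1 (0.971), Csf2rb2 to Tnfrsf22 (0.984), Zfp407 (0.982) and Smarca2 (0.981), and Csf3r to Lrp6 (0.989), Zbtb11 and Tet2 (0.988 each). These r values describe 6 libraries and carry no test.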

How the data were processed

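RNA was sequenced in paired ends from 3 control and 3 optimized cultures. The authors mapped the reads to mm39 (GRCm39) with HISAT2 and counted them with featureCounts, and they deposited raw counts per gene and FPKM values. Tool versions, annotation, strand setting and the handling of multi-mapped or overlapping reads are not given in the sources used here. Each column was assigned by the library name its sample's label gives, and 0 columns were unmatched.

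The deposited counts were filtered with filterByExpr, scaled with TMM factors and compared with edgeR 4.0.16 (R 4.3.3), glmQLFit and glmQLFTest, on condition alone, with Benjamini-Hochberg adjustment over 14618 genes. The SE is the log2 fold change divided by the square root of F. The common dispersion was 0.0164, a coefficient of variation of 0.128. CPM were printed without a prior, and r used log2 CPM with a prior count of 2. Alternatives were other scalings and filters, DESeq2 1.42.0, limma 3.58.1 on log2(FPKM + pseudocount), a replicate block, each library left out, and both beta chain genes added. The fits were tested on simulated data. Transcripts were aligned with Biopython 1.88.

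The members, lists, markers and tests were chosen with earlier results of these data known. Named are every member, up to 4 higher and 4 lower called genes per list by size, all genes of lists of up to 6, and the 3 genes most alike in pattern, predicted genes left out. Uncalled genes, Itgax and genes without enough counts that are named from longer lists, and genes that overlap a member, were added after their values were seen. Of 161 members, list and marker symbols, 159 were in the tables. Fcrls and Chil1 were not used. A list gene, kept in its list's counts and median, and a microglial marker, left out of the printed sum, are not reported here.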

Additional observations from a re-analysis of the deposited data

How the results depend on the processing

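Under the 16 alternatives tried, the number of genes called was 3249 to 5234 when 1 library was left out and 4924 with a replicate block, against 4360, and of list genes 38 to 56 and 50, against 48. The highest numbers, 5234 and 56, came without optimized replicate 1. By chi-square per gene on raw counts, that library differed from optimized replicates 2 and 3 by 78.5 and 45.9. Optimized replicates 2 and 3 differed from each other by 14.4. Members called were 2 in the main analysis and with the replicate block, 1 without control replicate 1, and 3 with library size alone and with FPKM values, where Csf2rb was added (adjusted p 0.0232 and 0.0149 to 0.0163, log2 fold change -0.32 and -0.32 to -0.33). Library size alone and FPKM values share nearly the same scaling and are not independent settings. Whether the replicate numbers pair the samples is not known. The r of same-numbered deviations was 0.273, -0.012 and 0.185, and deviations from means of 3 libraries cannot settle it. The replicate block changed no member's call. Csf1 was called under every alternative. The Csf1r fold change was -0.42 to -0.36 with 1 library left out. It missed the threshold without control replicate 1 (-0.38, adjusted p 0.0523) and barely passed without control replicate 2 or optimized replicate 3 (adjusted p 0.0496 and 0.0469, edgeR). In the remaining left-out fits its adjusted p was 0.00547 to 0.0280.

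Signs of members that did not pass turned in some settings. Csf2ra (0.08) became -0.058 with library size alone, -0.062 to -0.065 with the FPKM fits, and -0.0024 without optimized replicate 2 (range with 1 left out -0.0024 to 0.14). Csf2rb2 (0.05) became -0.081 with library size alone, -0.093 to -0.094 with the FPKM fits and -0.063 with both beta chain genes added. Csf3r (-0.02) became 0.011 without control replicate 1, 0.0030 without optimized replicate 2 and 0.024 without optimized replicate 3 (range -0.092 to 0.024). The 6 ratios kept their direction with each library left out, and a ratio of FPKM values within a library gives the same difference by construction. Causes were not tested. Il34, Csf2 and Csf3 are limited by depth: without a filter on low counts their adjusted p-values were 0.802, 0.475 and 0.770.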
